A study of Homo sapiens with 14 samples.

Results

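tRNA-Pro-AGG, tRNA-Pro-CGG and tRNA-Pro-TGG are the cytosolic tRNAs that carry proline to the ribosome, and each is named after the DNA letters of its anticodon. They were taken from the clusters of crosslinks, typed as tRNA, whose names begin with tRNA-Pro-, and clusters less than 40 nt apart were treated as 1 locus. This gave 9 clusters at 8 loci, comprising 2 of tRNA-Pro-AGG, 3 of tRNA-Pro-CGG and 3 of tRNA-Pro-TGG, out of 493 tRNA clusters at 248 tRNA loci. TRMT2A was crosslinked to RNA in 3 ways. FICC-Seq was performed on endogenous TRMT2A in HEK293 (a human embryonic kidney line) and HAP1 (a near-haploid line) after 24 h in 100 µM 5-fluorouracil (5FU), which traps the enzyme on its target base, with 3 libraries per line. The labels call the FICC-Seq condition untreated, although the protocol gives this treatment. iCLIP used UV light and the same antibody, without 5FU, with 3 libraries per line. miCLIP used a FLAG-tagged TRMT2A whose catalytic base, a glutamate, was replaced by alanine, overexpressed by transfection of HEK293, with 2 libraries, so its levels are those of an overexpressed mutant rather than of the endogenous enzyme. The paper lists only clusters that reached a minimum of counts in most of these experiments. iCLIP of the 2 lines and miCLIP could meet this without FICC-Seq, whereas FICC-Seq could not meet it alone. How far this selection moved comparisons with FICC-Seq was not tested.

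TRMT2A methylates U54 in the T-loop of tRNAs, forming 5-methyluridine (m5U). In catalytic crosslinking the end of a cDNA is most often assigned to the base before the crosslinked one, so crosslinking at U54 appears at position 53. At A58 most tRNAs carry 1-methyladenosine, which stalls reverse transcription and leaves counts at position 58 whether or not the protein is linked there. In some animal tRNAs, U54 is converted to pseudouridine by PUS10 instead of being methylated, and T-loops with an AAAT stretch from position 57 to 60 are among the known substrates of that enzyme.

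All 8 proline loci are genes of 72 nt whose last 25 bases, from position 49 to 73, were identical. This stretch of the T-arm and acceptor end is shown because it holds U54, A58 and the AAAT stretch. The capitals mark positions 54 to 60 and the sequence is read from GRCh37.

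All 8 proline loci: ccgggTTCAAATcccggacgagccc

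The whole genes fell into 5 distinct sequences with at most 3 differences between any pair. The anticodon arms, positions 27 to 43, are shown because they are where the isoacceptors part, with the anticodon in capitals. The arm of tRNA-Pro-CGG-2-1 differed from that of the other tRNA-Pro-CGG loci.

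tRNA-Pro-AGG, both loci: ctcgcttAGGgtgcgag
tRNA-Pro-CGG-1-1 and tRNA-Pro-CGG-1-3: ctcgcttCGGgtgcgag
tRNA-Pro-CGG-2-1: ctcgcttCGGgtgtgag
tRNA-Pro-TGG, all 3 loci: ctcgcttTGGgtgcgag

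The loci lay on 6 chromosomes of hg19. tRNA-Pro-AGG-2-4 was at chr11:75946557-75946628 and tRNA-Pro-AGG-2-6 at chr14:21081560-21081631. tRNA-Pro-CGG-1-1 was at chr1:167683962-167684033, tRNA-Pro-CGG-1-3 at chr17:8126151-8126222 and tRNA-Pro-CGG-2-1 at chr6:27059521-27059592. tRNA-Pro-TGG-1-1 was at chr14:21101165-21101236, tRNA-Pro-TGG-3-2 at chr14:21152175-21152246 and tRNA-Pro-TGG-3-3 at chr16:3208923-3208994. The loci tRNA-Pro-AGG-2-6 and tRNA-Pro-CGG-1-3 are on the minus strand. Only tRNA-Pro-CGG-1-3 fell inside an annotated gene, an exon of the non-coding RNA gene LINC00324 on the same strand, and the other 7 overlapped no gene of the annotation used.

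The repeated sequence limits what can be assigned to 1 locus. Positions 53 to 73 occur as 21 exact copies in the genome, the 8 proline loci and 13 others, and only uniquely mapping reads had been kept. Adding the first 3 bases after position 73 left at most 2 copies, and adding 5 left 1. A read that starts within this stretch can be placed only if it runs on into the genomic bases after position 73. Reads confined to the stretch are not in the counts. None of the 21 copies has CCA, the end of mature tRNAs, directly after position 73 in the genome. How far the counts come from mature tRNA, or from transcripts that keep the genomic bases there, was not tested. Positions 34 to 73 occur as 1 copy for tRNA-Pro-CGG-2-1, 3 for each other tRNA-Pro-CGG locus, 6 for tRNA-Pro-TGG and 8 for tRNA-Pro-AGG. For reads that start within such repeated stretches, the split of counts between loci rests on the few bases after position 73 and is uncertain. So is the split between isoacceptors where a read does not hold the anticodon, positions 34 to 36. Counts of the group as a whole and of the isoacceptors are given first.

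The 14 libraries held between 7002 and 104605 cDNA counts, so that 3 counts, the limit set by a count of 0, correspond to 28.7 CPM (counts scaled to a library total of 1000000) in the deepest and 428 CPM in the shallowest. These limits and all intervals below cover counting error only. The iCLIP libraries of the 2 cell lines were not fully separate. Outside the listed clusters, replicate 2 of iCLIP from HEK293 shared 32.5% of its positions with replicate 2 from HAP1, against at most 12.7% with the other HAP1 replicates. For replicate 3 the share was 29.5% against at most 8.24%, and for replicate 1 it was 10.7% against at most 8.23%. The labels give same-numbered iCLIP libraries the same barcode, and whether reads moved between them was not tested. The fits of isoacceptors and loci against iCLIP are therefore also given with same-numbered libraries of the 2 lines summed into 1, whereas the exact permutation and sign-flip tests treat the iCLIP libraries as separate. In FICC-Seq, same-numbered libraries shared 31.2% to 35.0% of such positions and differently numbered ones 25.5% to 34.2%. FICC-Seq barcodes were shared too: the labels give replicates 1 and 3 of HEK293 and replicate 3 of HAP1 the same barcode, and both replicates numbered 2 another. Replicate 1 of HEK293 shared 39.1% of its positions with replicate 3 and 24.2% with replicate 2, which had fewer positions, and replicate 2 shared 35.1% and 36.6% of its own with replicates 1 and 3. Whether replicates 1 and 3 were fully separate was not tested, and without either of them all 3 isoacceptors were still called lower in FICC-Seq than in iCLIP (limma). The labels do not say whether replicates were separate cultures, so p-values measure only the spread between libraries.

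FICC-Seq recorded few crosslinks at the listed proline loci by uniquely mapping reads. The 6 FICC-Seq libraries together held 86 counts at the 8 loci, iCLIP held 120 in shallower libraries and miCLIP held 1153. The group amounted to 537 ± 460 CPM (SD, n = 3) in FICC-Seq of HEK293, 510 ± 548 CPM (SD, n = 3) in FICC-Seq of HAP1, 1832 ± 1017 CPM (SD, n = 3) in iCLIP of HEK293, 2371 ± 651 CPM (SD, n = 3) in iCLIP of HAP1 and 8130 ± 317 CPM (SD, n = 2) in miCLIP. Replicate 2 carried both FICC-Seq means, with 1064 CPM in HEK293 and 1139 CPM in HAP1. The other FICC-Seq libraries had 337 and 211 CPM in HEK293 and 135 and 257 CPM in HAP1. Of the counts on tRNA, the proline loci took 0.0178% to 0.146% in a FICC-Seq library, 0.236% to 0.492% in an iCLIP library and 1.37% to 1.5% in a miCLIP library. These 3 ranges did not overlap. Such separation of libraries by method, here and below, was not counted for other features.

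tRNA-Pro-AGG had 84.3, 188 and 70.4 CPM in replicates 1 to 3 of FICC-Seq from HEK293 and 0, 83.3 and 0 CPM in those from HAP1. In iCLIP it had 287, 626 and 428 CPM in HEK293 and 363, 425 and 498 CPM in HAP1, and in miCLIP it had 1358 and 1396 CPM. Every FICC-Seq library was below every iCLIP library, and both miCLIP libraries were above all others.

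tRNA-Pro-TGG had 0, 0 and 35.2 CPM in FICC-Seq from HEK293, a single cDNA in all, and 0, 194 and 77.0 CPM in FICC-Seq from HAP1. In iCLIP it had 459, 1252 and 286 CPM in HEK293 and 726, 1168 and 996 CPM in HAP1. The miCLIP libraries had 2229 and 2008 CPM. The 3 methods again did not overlap.

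tRNA-Pro-CGG was the highest of the 3 isoacceptors in FICC-Seq, with 253, 876 and 106 CPM in HEK293 and 135, 861 and 180 CPM in HAP1. In iCLIP it had 459, 1127 and 571 CPM in HEK293 and 545, 1274 and 1120 CPM in HAP1, and in miCLIP 4766 and 4503 CPM. Here FICC-Seq and iCLIP overlapped, because replicate 2 of FICC-Seq in each cell line was above the lowest iCLIP library.

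**Figure D1:**
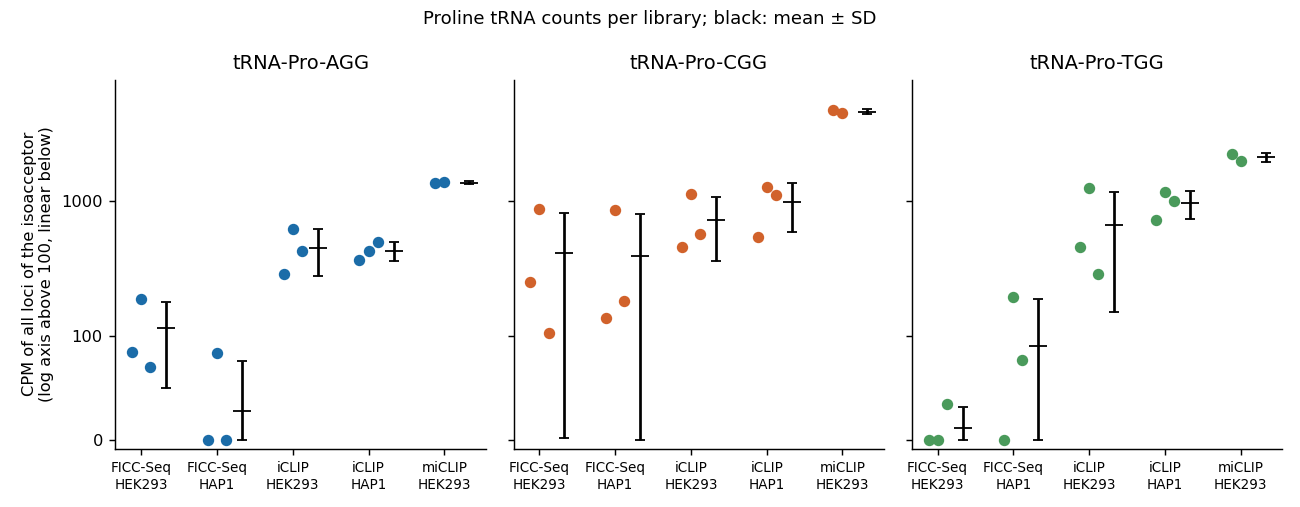
CPM of each proline isoacceptor (vertical axis, logarithmic above 100 and linear below) in the 14 libraries by experiment; each point is a library and the black marks give the mean and SD, cut at 0. FICC-Seq lies below iCLIP for tRNA-Pro-AGG and tRNA-Pro-TGG, tRNA-Pro-CGG overlaps through the 2 FICC-Seq libraries at 876 and 861 CPM, and miCLIP is highest throughout.

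The first comparison set all counts of FICC-Seq, with 5FU, against all counts of the same endogenous enzyme in iCLIP, with UV light. Every count in the window of a locus entered, whatever its position. In FICC-Seq 24 of the 86 were at positions 53 and 54 and 20 at position 58, against 14 and 73 of the 120 in iCLIP. Levels are relative to the library, so the comparison gives neither the frequency of catalytic crosslinks nor that of UV contacts. Fits of counts at positions 53 and 54 alone were not run. All 3 isoacceptors were lower in FICC-Seq than in iCLIP (limma voom over both cell lines, Benjamini-Hochberg adjusted over 122 features), where 33.6% of all features were called lower. The log2 difference was -4.41 ± 0.58 (SE) for tRNA-Pro-TGG, with adjusted p = 6.97e-07 in limma. It was -3.38 ± 0.56 (SE) for tRNA-Pro-AGG, with adjusted p = 1.41e-05 in limma. For tRNA-Pro-CGG it was -1.85 ± 0.55 (SE), with adjusted p = 0.00624 in limma. The median of all features was -0.41. By pooled counts, the level in iCLIP was 12.1 times that in FICC-Seq for tRNA-Pro-TGG (95% exact interval 6.20 to 25.9), 7.10 times for tRNA-Pro-AGG (3.29 to 16.6) and 2.10 times for tRNA-Pro-CGG (1.41 to 3.09). The fitted differences of isoacceptors with libraries at 0 depend on the 0.5 counts that voom adds.

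The call for tRNA-Pro-CGG was the least firm. Within HEK293 alone its difference was -1.83 (limma, adjusted p = 0.0652) and within HAP1 alone -1.86 (limma, adjusted p = 0.0592), whereas tRNA-Pro-AGG and tRNA-Pro-TGG were called lower in each line, where 27% of features in HEK293 and 23% in HAP1 were. An exact permutation of CPM within cell lines, two-sided, gave tRNA-Pro-CGG p = 0.08 and adjusted p = 0.155, with 4 of 6 FICC-Seq libraries below the lowest iCLIP library. The other 2 had p = 0.005 in that exact permutation test, the smallest that 400 labelings allow, and adjusted p = 0.0174, with 41.8% of the 122 features called. With same-numbered iCLIP libraries summed, all 3 were still called lower. Without both FICC-Seq libraries numbered 2, the difference of tRNA-Pro-CGG was -2.60 (limma, adjusted p = 8.26e-05). The scaling moved the proline tRNAs and the background together. With library totals alone tRNA-Pro-CGG was at -1.46, the median of all features was at -0.03 and 47.5% of the calls were higher, against 36.9% with TMM factors (trimmed mean of M-values), and with median-of-ratios size factors these were -2.13, -0.70 and 30.8%.

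At single loci, 7 of the 8 were called lower in FICC-Seq (limma, 316 loci tested), where 35.1% of all loci were called lower. All 316 loci had reached the minimum of counts for listing, which could be met without FICC-Seq. The median log2 difference of the 8 was -3.22, against -0.34 over all loci. Within HEK293 alone 6 of the 8 were called lower and within HAP1 alone 7 of the 8, where 30.4% and 28.8% of all loci were. With same-numbered iCLIP libraries summed, 7 of the 8 were called lower as well. The 3 tRNA-Pro-TGG loci spanned -3.93 to -3.35, the 2 tRNA-Pro-AGG loci had -3.43 and -3.10, and tRNA-Pro-CGG-1-1 and tRNA-Pro-CGG-1-3 had -2.54 and -2.37. The call of tRNA-Pro-CGG-1-3 was lost in a limma-trend fit on log2(CPM + 100), at -0.97 (limma, adjusted p = 0.0913). The exception was tRNA-Pro-CGG-2-1, at -1.82 ± 0.85 (SE), with adjusted p = 0.0746 in limma. This locus held 38 of the 86 FICC-Seq counts, 24 of them in replicate 2 of HAP1 and 6 in replicate 2 of HEK293, against 13 counts in all iCLIP libraries. By pooled counts iCLIP was 0.971 times FICC-Seq at this locus (95% exact interval 0.475 to 1.86), and the exact permutation of CPM gave a difference of -17.3 CPM with p = 0.88. Its difference was called without either of these libraries, at -2.46 without the former (limma, adjusted p = 0.0078) and -2.30 without the latter (limma, adjusted p = 0.0258). It was also called when only positions within 10 nt of the cluster were counted, at -2.80 (limma, adjusted p = 0.000645).

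Other tRNAs with the AAAT stretch were lower in FICC-Seq as well. Of the 25 other loci with AAAT at positions 57 to 60, 19 were called lower and 0 higher in FICC-Seq (limma), with a median log2 difference of -2.64. Of the 200 loci with another sequence there, 61 were called lower and 59 higher, with a median of 0.15. With same-numbered iCLIP libraries summed, 20 of the 25 were called lower and 0 higher, and 56 lower and 58 higher of the 200. Pooled CPM per locus in FICC-Seq was 62.2 for the proline loci, 623 for the other loci with AAAT and 3888 for those without, and in iCLIP it was 246, 993 and 2502. By this mean the proline loci were lowest in both methods. The median locus in FICC-Seq had 34.7 CPM for proline and 174 CPM for the other loci with AAAT. The lower quartile of the latter was 23.1 CPM, so some of them were as low as the proline loci. Whether proline loci differed from other loci with AAAT was not tested. These loci belonged to tRNA-Cys-GCA (11 loci), tRNA-Gln-TTG (4), tRNA-Gln-CTG (3) and to 5 further isoacceptors with 1 or 2 each.

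**Figure D2:**
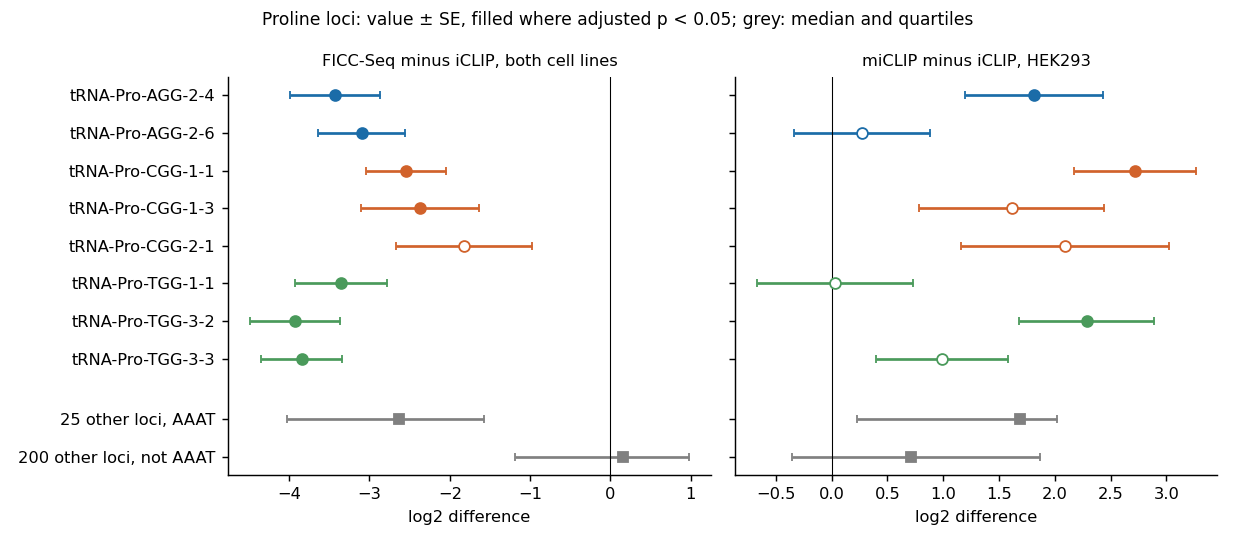
log2 difference (horizontal axis) of FICC-Seq minus iCLIP over both cell lines and of miCLIP minus iCLIP in HEK293 at the 8 proline loci, as value and SE, filled where called in limma. Grey squares give the median and quartiles of the 25 other loci with AAAT and the 200 loci without; 7 of 8 proline loci are called lower in FICC-Seq, and 3 of 8 higher in miCLIP.

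The second comparison set miCLIP against iCLIP in HEK293. Only tRNA-Pro-CGG was called higher in miCLIP, by 2.25 ± 0.59 (SE) on the log2 scale (limma, adjusted p = 0.00237), where 17.2% of 122 features were called higher. tRNA-Pro-TGG had 1.32 ± 0.62 (SE), with adjusted p = 0.0714 in limma, and tRNA-Pro-AGG had 1.12 ± 0.61 (SE), with adjusted p = 0.122 in limma. The median of all features was -0.59. In pooled counts, miCLIP exceeded iCLIP 7.06 times for tRNA-Pro-CGG (95% exact interval 4.58 to 11.5), 3.46 times for tRNA-Pro-AGG (1.97 to 6.6) and 3.35 times for tRNA-Pro-TGG (2.13 to 5.57). Which isoacceptors were called depended on the scaling. With library totals alone tRNA-Pro-AGG and tRNA-Pro-TGG were called too (limma, adjusted p = 0.0297 and 0.0166), the median of all features was -0.12, and 48% of the calls were higher against 31.3%. With the iCLIP libraries summed they were called at adjusted p = 0.0147 and 0.0225 in limma. With tRNA features alone tRNA-Pro-CGG was not (limma, adjusted p = 0.0523).

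Of the 8 loci, 3 were called higher in miCLIP, where 27.5% of 316 loci were. These were 1 locus of each isoacceptor: tRNA-Pro-CGG-1-1 at 2.72 ± 0.54 (SE), tRNA-Pro-TGG-3-2 at 2.29 ± 0.61 (SE) and tRNA-Pro-AGG-2-4 at 1.81 ± 0.62 (SE), with adjusted p of 0.000543, 0.0041 and 0.0192 in limma. The other 5 loci ranged from 0.03 to 2.09, and the median of the 8 was 1.71 against 0.42 over all loci. With same-numbered iCLIP libraries summed, tRNA-Pro-CGG-2-1 was called as well, which made 4 of the 8 loci (2.16, limma adjusted p = 0.0427). Without replicate 3 of iCLIP from HEK293, tRNA-Pro-CGG-1-1 alone was called. The call of tRNA-Pro-AGG-2-4 was also lost without replicate 2 of iCLIP or without replicate 2 of miCLIP. Without replicate 2 of iCLIP, tRNA-Pro-CGG-1-3 was called (2.49, limma adjusted p = 0.0393), and without replicate 1 of miCLIP, tRNA-Pro-CGG-2-1 (2.53, limma adjusted p = 0.0335).

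The third comparison set FICC-Seq against miCLIP of the overexpressed mutant in HEK293, both of them methods built on a catalytic crosslink. All counts in the window entered again. In FICC-Seq of HEK293, 8 of the 31 were at positions 53 and 54, against 586 of 1153 in miCLIP. FICC-Seq was lower at all 3 isoacceptors, where 30.3% of features were called lower. The log2 differences were -6.14 ± 0.67 (SE) for tRNA-Pro-TGG, -4.08 ± 0.60 (SE) for tRNA-Pro-CGG and -3.62 ± 0.63 (SE) for tRNA-Pro-AGG, with adjusted p of 2.37e-08, 1.61e-06 and 2.16e-05 in limma. The median of all features was 0.42. All 8 loci were called lower in FICC-Seq (43.4% of 316 loci in limma), from -6.37 at tRNA-Pro-TGG-3-2 to -2.69 at tRNA-Pro-AGG-2-6. Of the 25 other loci with AAAT, 22 were called lower and 1 higher (limma). Their median log2 difference was -4.66, against -4.22 for the proline loci. Of the 200 loci with another sequence there, 88 were called lower and 63 higher, with a median of -0.42. In HEK293, tRNA-Pro-TGG-3-2 had 197 counts in miCLIP and none in FICC-Seq. Its pooled level in miCLIP was 31.1 times a floor of 3 counts over the FICC-Seq group. The lower limit of the 95% exact interval of the ratio was 25.1. The 3 comparisons share libraries and are not independent of each other.

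The cell lines were compared within each method. None of the 3 isoacceptors and none of the 8 loci was called in FICC-Seq or in iCLIP, where 10.7% and 2.46% of 122 features and 11.1% and 0.316% of 316 loci were. The largest difference was tRNA-Pro-AGG in FICC-Seq, lower in HAP1 by -1.90 ± 0.81 on the log2 scale (SE; limma, adjusted p = 0.14). It rested on 7 counts in HEK293 and 3 in HAP1, and all 3 were in replicate 2, without which the difference was -2.79 (limma, adjusted p = 0.0299) and depended on the counts that voom adds to libraries at 0. Its locus tRNA-Pro-AGG-2-6 was then called as well, at -2.55 (limma, adjusted p = 0.0419). By unadjusted p under 0.05 in limma, tRNA-Pro-AGG and tRNA-Pro-AGG-2-6 passed in FICC-Seq, as did 30 of all 122 features and 76 of all 316 loci. No proline feature passed in iCLIP, where 9 of 122 features and 32 of 316 loci did. In iCLIP the 3 isoacceptors differed by -0.15 to 0.54 on the log2 scale. The difference between FICC-Seq and iCLIP was not found to vary with the cell line, since limma called none of the 122 features for this interaction (16 had an unadjusted p under 0.05, none of them a proline isoacceptor), and the 3 proline isoacceptors had interaction terms from -1.76 to 0.82.

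The isoacceptors were then compared with each other within libraries, as CPM per locus. In FICC-Seq tRNA-Pro-CGG had 134 CPM per locus, tRNA-Pro-AGG 35.5 and tRNA-Pro-TGG 17 CPM. tRNA-Pro-CGG exceeded tRNA-Pro-TGG in 6 of 6 libraries by 117 ± 113 (SD), with an exact sign-flip permutation p of 0.0312, two-sided and the smallest that 6 libraries allow. After adjustment over the 6 tests (3 pairs in 2 methods) this was 0.188, so no pair was called. In iCLIP the 3 isoacceptors were closer, at 283 CPM per locus for tRNA-Pro-CGG, 271 for tRNA-Pro-TGG and 219 for tRNA-Pro-AGG, and the exact permutation p ranged from 0.188 to 0.75. In miCLIP, with 2 libraries and no test, the pooled levels per locus were 1525 CPM for tRNA-Pro-CGG, 693 for tRNA-Pro-AGG and 689 for tRNA-Pro-TGG.

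Among the 48 tRNA isoacceptors, ordered from the lowest by pooled CPM per locus in FICC-Seq, tRNA-Pro-TGG stood 2, tRNA-Pro-AGG 4 and tRNA-Pro-CGG 9. The places were 4, 3 and 6 in iCLIP and 2, 3 and 12 in miCLIP. By uniquely mapping reads, the proline tRNAs were thus near the low end in all 3 methods. The neighbours of tRNA-Pro-TGG in the FICC-Seq order were tRNA-Gln-CTG at 13.5 and tRNA-Arg-ACG at 26 CPM per locus. tRNA-Arg-ACG was also just below tRNA-Pro-AGG, whose 28.9 equalled that of tRNA-iMet-CAT. tRNA-Pro-CGG, at 125, lay between tRNA-His-GTG at 107 and tRNA-Thr-CGT at 203. The ranges of the 6 libraries overlapped for each of these neighbours. Over the 14 libraries, the isoacceptor whose log2(CPM + 100) followed most closely was tRNA-Arg-ACG for tRNA-Pro-AGG (Pearson's r = 0.96) and for tRNA-Pro-TGG (r = 0.93), and tRNA-Cys-GCA for tRNA-Pro-CGG (r = 0.97). tRNA-Thr-TGT was second for all 3, with r from 0.90 to 0.95, and tRNA-Thr-CGT, tRNA-Gln-TTG and tRNA-Trp-CCA were the third for tRNA-Pro-AGG, tRNA-Pro-TGG and tRNA-Pro-CGG. These points share the library totals and the 3 methods, and are a description.

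The position of the counts within the tRNA is described from pooled counts first, and tested across libraries after that. In iCLIP, 73 of the 120 counts at proline loci (60.8%, 95% exact binomial interval 51.5 to 69.6) were at position 58 and 14 (11.7%, 6.53 to 18.8) at positions 53 and 54. Position 58 was the highest at 7 of the 8 loci, and the exception, tRNA-Pro-CGG-1-3, had 4 of its 12 counts at position 54. In miCLIP, 586 of 1153 counts (50.8%, 47.9 to 53.8) were at positions 53 and 54, of which 401 were at position 53, and 158 (13.7%, 11.8 to 15.8) were at position 58. Position 53 was the highest at 7 of the 8 loci in miCLIP. In FICC-Seq, 24 of 86 counts (27.9%, 18.8 to 38.6) were at positions 53 and 54, 10 at the former and 14 at the latter, 20 (23.3%, 14.8 to 33.6) at position 58, and 28 (32.6%, 22.8 to 43.5) before the first base of the gene. In FICC-Seq, positions 53 and 54 held 37.9% of the counts at the other 25 loci with AAAT and 68.9% at the 200 loci without. Leaving out the counts before the first base, the shares were 41.4% for the proline loci (24 of 58 counts), 40.2% for the other loci with AAAT and 69.6% for those without. Differences between these groups of loci were not tested.

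By isoacceptor, tRNA-Pro-AGG had 4 of 10 FICC-Seq counts at positions 53 and 54 and none of 25 in iCLIP, which allows a share of up to 13.7% (upper limit of the 95% exact interval). tRNA-Pro-TGG had 4 of 11 in FICC-Seq and 6 of 47 in iCLIP. These could not be tested across libraries, as several FICC-Seq libraries held no count. tRNA-Pro-CGG had a mean share of 43.3% over the 6 FICC-Seq libraries and 16% over the 6 iCLIP libraries, a difference that was not called (p = 0.125 and adjusted p = 0.125, two-sided exact permutation). In the same test 97.3% of the 37 isoacceptors with counts in every library were called. Within positions 44 to 73 only, the difference at tRNA-Pro-CGG was 43 percentage points and passed the same exact permutation test (adjusted p = 0.0206). Without replicate 2 of FICC-Seq from HAP1 it was 36.4 points, adjusted p = 0.035 by exact permutation. In miCLIP the shares at positions 53 and 54 were 64.3% for tRNA-Pro-AGG (57.2 to 71.0), 56.9% for tRNA-Pro-TGG (51.1 to 62.6) and 44% for tRNA-Pro-CGG (40.2 to 47.9). Mean shares in iCLIP of HEK293 were 0% for the former 2 and 15.3% for tRNA-Pro-CGG, but 2 libraries against 3 cannot give an exact permutation p under 0.1.

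The miCLIP counts had further places. Positions 27 to 43 held 145 of the 1153 counts, and 99 of these were within the anticodon loop between positions 33 and 38. Of tRNA-Pro-CGG, 15.8% (13.1 to 18.8) of the miCLIP counts were at positions 27 to 43, compared with 8.04% (4.67 to 12.7) of tRNA-Pro-AGG and 8.42% (5.52 to 12.2) of tRNA-Pro-TGG, and tRNA-Pro-CGG-2-1 alone gave 66 of the 145. Positions 44 to 52 held 103 counts. With 2 libraries, whether these shares differ between isoacceptors was not tested. Positions 34 to 73 are a single copy in the genome only for tRNA-Pro-CGG-2-1. A read of this stretch can be placed there without the bases after position 73, and at the other proline loci it cannot. How far this moved the shares was not tested.

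Counts before the first base of the gene fall in the leader of the unprocessed transcript, which is removed from the mature tRNA. Of 144 such counts over all libraries, 142 were 2 to 8 bases before position 1. They were 28 in FICC-Seq, 3 in iCLIP and 113 in miCLIP. All 28 of FICC-Seq were in replicate 2, with 8 in HEK293 and 20 in HAP1, and the other 4 FICC-Seq libraries had none. In miCLIP all but 8 of the 113 were in replicate 2. At the other tRNA loci the leader took 1.71% and 2.43% of the counts in these FICC-Seq libraries and 0.387% to 1.23% in the other 4, and 8.46% and 3.76% in miCLIP replicates 2 and 1, so these libraries were also the highest of their method there. In iCLIP the leader took 2.02% to 16.1% at the other loci. What moves this share was not tested. The 3 loci with at least 10 counts before position 1 are shown from 12 bases before the gene to its eighth base, with the most counted base in capitals.

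tRNA-Pro-CGG-2-1, chr6:27059509-27059528, plus strand: ccatttcTaagtggctcgtt
tRNA-Pro-CGG-1-3, chr17:8126215-8126234, minus strand: cgtccgcaCgtcggctcgtt
tRNA-Pro-AGG-2-4, chr11:75946545-75946564, plus strand: cttacgagCgacggctcgtt

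The most counted base lay 5 bases before position 1 in tRNA-Pro-CGG-2-1 and 4 before it in the other two. tRNA-Pro-CGG-2-1 had 72 such counts, 17 in FICC-Seq and 55 in miCLIP, and tRNA-Pro-CGG-1-3 had 37, 6 in FICC-Seq and 31 in miCLIP. tRNA-Pro-AGG-2-4 had 17, all in miCLIP, and none of the 3 had any in iCLIP. For tRNA-Pro-CGG-2-1 this was the highest position in both FICC-Seq and miCLIP, and it was the 1 locus of 8 where position 53 was not the highest in miCLIP.

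The 13 other exact copies of positions 53 to 73, which the list of clusters does not hold, gave a view of the same sequence at loci that had not been listed. Counts were found at 11 of them, 582 in all against 1357 at the proline loci in the same window. Their sum was 250 ± 252 CPM (SD, n = 6) in FICC-Seq, 1250 ± 625 CPM (SD, n = 6) in iCLIP and 3121 ± 427 CPM (SD, n = 2) in miCLIP. FICC-Seq and iCLIP overlapped by library, as the highest FICC-Seq library, replicate 2 of HAP1, exceeded the lowest iCLIP library at 516 CPM. Position 58 held 58.6% (95% exact interval 46.2 to 70.2) of the counts in iCLIP and 6.84% (4.72 to 9.52) in miCLIP, and positions 53 and 54 held 46.4% (41.8 to 51) in miCLIP and 31.8% (18.6 to 47.6) of 44 counts in FICC-Seq.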

How the data were processed

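FICC-Seq, iCLIP and miCLIP of TRMT2A were measured in 14 libraries. The authors mapped reads to hg19, kept uniquely mapping reads, removed duplicates by random barcode and deposited whole cDNA counts per position, with the sign giving the strand. Groups follow the labels. Absolute counts on the strand of each cluster were summed from 100 nt 5′ to 25 nt 3′ of it. Position numbers follow the tRNA convention and were placed from the T-arm in the GRCh37 sequence. Features with fewer than 10 counts over all libraries were left out of the fits.

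CPM is counts scaled to a library total of 1000000. Since the deposited column is signed and not a plain count table, limma 3.58.1 on the absolute counts (voom, TMM factors computed from the counts, Benjamini-Hochberg adjustment over all features) in R 4.3.3 replaced the count test first chosen. The fit holds all 14 libraries by group, and a call is an adjusted p under 0.05. Tested on simulated data of 316 features for FICC-Seq against iCLIP, it recovered 95% of 40 features changed 8-fold and called 1.09% of the unchanged. These rates are over all simulated features and were not taken apart for counts as low as those of the proline loci. Exact permutation tests used scipy 1.17.1. Replicate numbers were taken to pair libraries of the same method across cell lines, since deviations of same-numbered libraries from their group means correlated from 0.15 to 0.61, and this block changed no call of a proline isoacceptor. All proline loci were named, with the isoacceptors next to them in the FICC-Seq order and the 3 most alike over libraries. The members and lists were chosen with earlier results of these data known. Scaling, filters, window, block and replicates left out were varied.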

Additional observations from a re-analysis of the deposited data

How the results depend on the processing

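Proline isoacceptors stayed lower in FICC-Seq than in iCLIP under every alternative run, and leaving out 1 library gave log2 differences of -3.83 to -3.11 for tRNA-Pro-AGG, -2.24 to -1.54 for tRNA-Pro-CGG and -4.81 to -3.92 for tRNA-Pro-TGG. tRNA-Pro-CGG was not called within HEK293 (-1.83), within HAP1 (-1.86) or by exact permutation of CPM (a difference of -448 CPM). For miCLIP minus iCLIP, tRNA-Pro-AGG was called with library totals (1.57), without single-count positions (2.16) and with iCLIP libraries merged (1.62). tRNA-Pro-TGG was called with library totals (1.78), a window of 10 nt (1.44) and iCLIP libraries merged (1.38), and tRNA-Pro-CGG was not called with tRNA features alone (1.59). In that comparison tRNA-Pro-AGG-2-6 turned negative with median-of-ratios factors (-0.092) and tRNA features alone (-0.42), and ranged from -0.11 to 0.66 with a library left out. tRNA-Pro-TGG-1-1 turned negative with median-of-ratios factors (-0.32), a window of 10 nt (-0.041), no single-count positions (-0.24) and tRNA features alone (-0.65), and ranged from -0.73 to 0.43 with a library left out. Of the 8 loci, 1 to 4 were called there with a library left out.

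For HAP1 minus HEK293, tRNA-Pro-CGG in FICC-Seq turned negative with library totals (-0.028) and a window of 10 nt (-0.29) and ranged from -0.51 to 0.99 with a library left out, while tRNA-Pro-AGG ranged from -2.79 to -1.35 and 0 to 1 of the loci were called. In iCLIP tRNA-Pro-AGG turned positive with library totals (0.026) and without single-count positions (0.52). The share at positions 53 and 54 of tRNA-Pro-CGG in FICC-Seq minus iCLIP was 43 points within positions 44 to 73 and 13.8 to 36.4 with a library left out. Taking position 58 instead turned it to -20.6 points, and miCLIP minus iCLIP to -30.9 for tRNA-Pro-AGG, -41.2 for tRNA-Pro-CGG and -53.4 for tRNA-Pro-TGG, since it counts another base. tRNA-Pro-CGG minus tRNA-Pro-TGG in iCLIP ranged from -5.08 to 26.1 CPM per locus with a library left out. Other causes were not tested.

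Same-numbered FICC-Seq and iCLIP libraries correlated from -0.13 to 0.25 in HEK293 and from 0.12 to 0.27 in HAP1. These correlations were weak in both lines and all positive only in HAP1. Whether the numbers pair libraries of the 2 methods was not tested. Within HAP1 the block changed no call of a proline isoacceptor or locus, and tRNA-Pro-CGG was at -1.64. With the replicate block, 67 features were called against 65 for FICC-Seq minus iCLIP, and the differences were -3.37, -1.69 and -4.37 for tRNA-Pro-AGG, tRNA-Pro-CGG and tRNA-Pro-TGG. tRNA-Pro-TGG-1-1 turned to -0.45 in miCLIP minus iCLIP with the replicate block, and tRNA-Pro-AGG-2-4 was no longer called. A second count model planned as an alternative was not run on these signed values. Depth limits the values, as 86 counts in FICC-Seq and 120 in iCLIP cover 8 loci.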
